A study of Rattus norvegicus with 13 samples.

Results

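The epidermal growth factor (EGF) family ligands and their ErbB receptors were examined in rat cholangiocarcinoma, which is cancer of the biliary tree, and in lines of cells made from such tumours. The members are the ligands Areg, Ereg, Hbegf, Tgfa and Btc and the receptors Egfr, Erbb2 and Erbb3, chosen by gene symbol. All 8 listed members were on the array, 8 of the 14217 genes measured, through 11 probe sets. Where a gene had several probe sets, the brightest set on average across the 13 arrays stands for it.

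The samples came from 5 groups, all on the Fischer 344 background. The 4 tumours were intrahepatic cholangiocarcinomas of young adult male rats, grown from BDEsp cells, a spontaneously transformed line of rat cholangiocytes placed in the bile duct, and were snap-frozen whole. An epithelial line of cancer cells (clone H10) and a line of cancer-associated fibroblastic cells marked by alpha smooth muscle actin (clone E4) had been derived from such tumours and both were cultured inside a rat tail collagen matrix (type I). A lone array was labelled as epithelial cells in co-culture with the fibroblastic line, 3 arrays held the epithelial line alone, a lone array was labelled as fibroblastic cells in co-culture with the epithelial line, and 4 arrays held the fibroblastic line alone. Each line is a clone, so its arrays repeat a single isolate. The sources used here do not say whether cultures of a line were independent or which fibroblast density the co-cultures had, so a p-value reflects no more than how these arrays vary, which may be technical. The arrays are Affymetrix rat expression arrays with values computed by the authors with RMA. Every level below is on the log2 scale, where a difference of 1 is a factor of 2 in signal, and levels of different genes cannot be set against each other.

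EGF family ligands are made as membrane-bound precursors that metalloproteases of the ADAM family cut free. Areg (amphiregulin) and Tgfa (transforming growth factor alpha) bind Egfr, while Ereg (epiregulin), Btc (betacellulin) and Hbegf (heparin-binding EGF-like growth factor) can also bind Erbb4. Ligand binding pairs Egfr with itself or with Erbb2, which has no known ligand of its own, or with Erbb3, which binds neuregulins and has little kinase activity. In biliary epithelium and its cancers the pathway is known for driving growth through the RAS to ERK and PI3K to AKT cascades.

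Areg, Ereg and Btc lie next to one another on rat chromosome 14, in the order Btc, Areg, Ereg and Epgn. Promoter sequence, 250 bases before the gene start, was taken from RefSeq (build GRCr8) for 6 of the 8 members. Ereg and Erbb3 are named only. Each window was searched on both strands for the cyclic AMP response element TGACGTCA, the AP-1 element TGANTCA and the GC box GGGCGG. The Areg window is shown because Areg had a large difference between the lines, and the Tgfa and Egfr windows because these were the members above every array of both lines in co-culture. They are chr14:17265642-17265891 (minus strand) for Areg, chr4:120175469-120175718 (plus strand) for Tgfa and chr14:95378376-95378625 (plus strand) for Egfr, with capitals marking the matches.
Areg: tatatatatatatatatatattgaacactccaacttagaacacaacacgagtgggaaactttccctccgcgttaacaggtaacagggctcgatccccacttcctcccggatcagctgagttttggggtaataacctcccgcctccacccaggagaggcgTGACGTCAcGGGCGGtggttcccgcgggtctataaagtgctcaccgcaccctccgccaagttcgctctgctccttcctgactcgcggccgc
Tgfa: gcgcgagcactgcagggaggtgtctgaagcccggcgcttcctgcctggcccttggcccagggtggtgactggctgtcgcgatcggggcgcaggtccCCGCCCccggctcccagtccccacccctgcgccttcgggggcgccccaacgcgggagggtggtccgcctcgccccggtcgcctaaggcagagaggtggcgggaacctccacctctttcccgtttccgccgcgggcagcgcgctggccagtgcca
Egfr: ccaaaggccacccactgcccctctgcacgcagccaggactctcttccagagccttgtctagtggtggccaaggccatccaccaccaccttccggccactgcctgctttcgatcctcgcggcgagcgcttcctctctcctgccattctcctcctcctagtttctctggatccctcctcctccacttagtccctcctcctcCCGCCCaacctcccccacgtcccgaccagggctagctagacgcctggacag
The Areg window held the cyclic AMP element 91 to 84 bases before the start and a GC box 82 to 77 bases before it. The cyclic AMP element was present in 1.59% of 33469 promoter windows of this length, the AP-1 element in 6.34% and the GC box in 30.5%. Of the 6 member windows, those of Areg, Tgfa, Btc, Egfr and Erbb2 held a GC box, that of Areg alone held the cyclic AMP element, and none held the AP-1 element. A match is a run of letters and not a shown binding site.

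The lines and tumours carried the markers their labels call for, and the co-culture arrays carried those of both lines. The mean of 6 epithelial markers (Krt19, Krt18, Krt7, Krt8, Epcam and Cdh1) was 12.44 to 13.01 in the tumours, 13.17 to 13.41 in epithelial cells and 4.50 to 5.19 in fibroblastic cells. The mean of 6 fibroblastic markers (Acta2, Col1a1, Col1a2, Postn, Vim and Pdgfrb) was 10.87 to 11.24 in the tumours, 5.40 to 5.63 in epithelial cells and 12.64 to 13.09 in fibroblastic cells. The array labelled epithelial co-culture read 12.70 for the epithelial and 11.06 for the fibroblastic list, and the array labelled fibroblastic co-culture 12.73 and 11.29. Both co-culture arrays therefore hold RNA with the markers of both lines, the sources used here do not say whether the cells were separated, and a co-culture value cannot be assigned to either cell type. The 4 tumours also carried macrophage markers (mean of 7 genes, 10.33 to 10.64, against 4.85 to 5.42 over the lines alone) and, in tumours 1, 3 and 4, hepatocyte markers (mean of 8 genes, 13.21, 11.85 and 13.26, against 6.55 in tumour 2 and 4.84 to 5.88 over the lines alone). Endothelial markers (4 of 5 measured) had means of 6.54 to 7.60 and T cell markers (3 genes) of 7.66 to 8.26 in the tumours, against at most 5.13 and 4.91 in the lines alone. The actin probe sets, a sign of RNA quality, read 0.61 to 0.75 higher at the 3′ than at the 5′ end in the tumours, 0.86 to 1.47 in epithelial cells and 1.05 to 2.65 in fibroblastic cells. Over all genes, fibroblastic arrays 1 and 3 and fibroblastic arrays 2 and 4 were more alike (r = 0.987 and 0.990) than the other pairs of that line (0.947 to 0.961), as were tumours 1 and 4 (0.991, against 0.904 to 0.968 for the other tumour pairs), and the labels give no batch. All were kept as separate arrays, and calls that ended with each of these pairs averaged into 1 replicate, an alternative chosen after seeing the data, are given below. The part of these differences in the results below was not tested unless a value is given.

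In the first comparison, of the 2 lines grown alone, most members were higher in the epithelial cancer cells. Areg and Ereg had the largest differences among the members, with signals 16.5 and 19.7 times those of the fibroblastic line. Ereg averaged 4.91 in the fibroblastic line, below the array medians of 6.15 to 6.25, so its fold rests on a reading that may be background. Erbb2, Tgfa, Erbb3 and Btc were also higher. Hbegf and Egfr did not pass the test. Of the 8 members, 6 were called higher and 0 lower at an adjusted p under 0.05, where 37.4% of all genes were called, 20.9% higher and 16.6% lower in the epithelial line. The arrays of the lines did not overlap for 7 of the 8, as for 45.3% of all genes. The members' median difference was 1.83, against 0.11 over all genes.

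The other comparisons set the whole tumours against each line. In the tumours, Areg, Ereg, Hbegf, Erbb2 and, narrowly, Btc were lower than in the epithelial line, while Erbb3 was higher. Against the epithelial line 1 member was called higher and 5 lower, where 52.1% of all genes were called, 18.9% higher and 33.2% lower. The arrays did not overlap for 5 members, as for 58.3% of all genes. The members' median difference there was -1.31, against -0.17 over all genes. Against the fibroblastic line Erbb3 was called higher and the 7 others were not called, where 60.9% of all genes were called, 27.3% higher and 33.5% lower. The arrays did not overlap for Erbb3 alone, as for 58.2% of all genes. The members' median difference there was 0.28, against -0.07 over all genes. These comparisons share arrays with the comparison of the lines and are therefore given side by side. In bulk tissue, fewer cells of a type and less RNA per cell cannot be told apart.

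**Figure D1:**
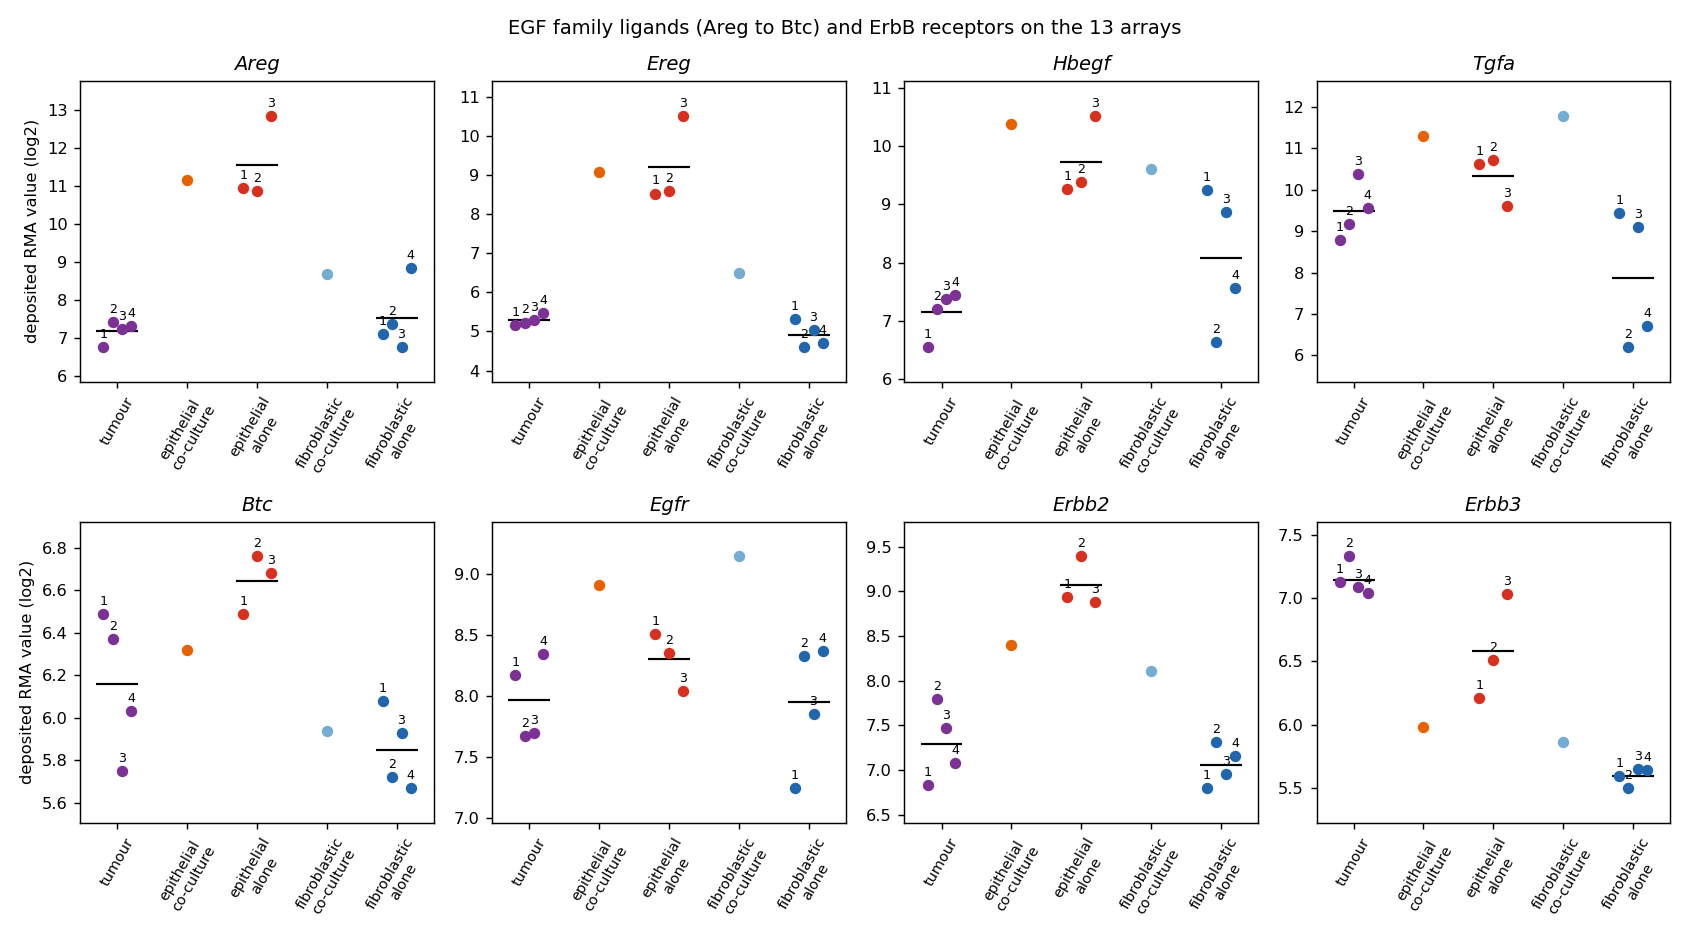
Deposited RMA value (log2, vertical axis) of the 8 members on each of the 13 arrays, by group (horizontal axis), with points numbered by replicate and a line at the mean of each replicated group; each panel has its own scale. Areg and Ereg stand high in the epithelial line (10.87 to 12.86 and 8.53 to 10.52) and low in the tumours (6.76 to 7.41 and 5.16 to 5.47), Tgfa and Egfr are highest on the co-culture arrays, and Erbb3 is highest in the tumours.

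Areg encodes amphiregulin, a ligand of Egfr alone. It read 6.76, 7.41, 7.22 and 7.32 in the 4 tumours, against 10.95, 10.87 and 12.86 in the epithelial line and 7.09, 7.37, 6.75 and 8.85 in the fibroblastic line. Every epithelial array was above every tumour and every fibroblastic array, and all 4 tumours lay within the range of the fibroblastic line. The epithelial line averaged 11.56 ± 1.13 (SD, n = 3) for Areg, against 7.51 ± 0.93 (SD, n = 4) in fibroblastic cells, and limma put the epithelial line 4.05 log2 units higher (SE 0.62, adjusted p = 0.00153). In the tumours it averaged 7.18 ± 0.29 (SD, n = 4), lower than in epithelial cells by -4.38 log2 units (SE 0.55, adjusted p = 0.000135). The difference from the fibroblastic line was -0.34 (SE 0.51, adjusted p = 0.585).

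Ereg encodes epiregulin, a ligand of Egfr and Erbb4. It read 5.16, 5.23, 5.30 and 5.47 in the tumours, against 8.53, 8.59 and 10.52 in the epithelial line and 5.31, 4.60, 5.04 and 4.71 in the fibroblastic line. The tumours and the fibroblastic line overlapped, and both lay below every epithelial array. Both also lay below the array medians of 6.15 to 6.25, where a reading may be background, so the difference between them is uncertain. The epithelial line exceeded the fibroblastic line by 4.30 (SE 0.47, adjusted p = 0.000245), and the tumours were below the epithelial line by a difference of -3.92 (SE 0.41, adjusted p = 4.39e-05). Against the fibroblastic line the tumours differed by 0.38 (SE 0.38, adjusted p = 0.411). Areg and Ereg shared a pattern within the epithelial line too, since array 3 was above the mean of arrays 1 and 2 by 1.95 for Areg and 1.96 for Ereg. The epithelial markers averaged 12.44 to 13.01 in the tumours, against 13.17 to 13.41 in the epithelial line, and their part in these differences was not tested.

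Hbegf encodes a heparin-binding ligand of Egfr and Erbb4. It read 6.55, 7.21, 7.38 and 7.44 in the tumours, against 9.26, 9.38 and 10.52 in the epithelial line and 9.24, 6.63, 8.87 and 7.56 in the fibroblastic line. The tumours lay below all 3 epithelial arrays, by a difference of -2.58 (SE 0.57, adjusted p = 0.00387). The fibroblastic arrays fell into a high pair, 1 and 3, and a low pair, 2 and 4, the pairs being 1.96 apart. The epithelial line was above the fibroblastic line by 1.65 (SE 0.64), with no overlap but short of the threshold (adjusted p = 0.0768). This difference was called without fibroblastic array 1 (2.04, adjusted p = 0.0356). The tumours differed from the fibroblastic line by -0.93 (SE 0.53, adjusted p = 0.152), or by -1.91 with arrays 2 and 4 left out (adjusted p = 0.00295) and -1.41 with array 2 left out (adjusted p = 0.0206).

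Tgfa encodes transforming growth factor alpha, another ligand of Egfr. It read 8.79, 9.18, 10.38 and 9.56 in the tumours, against 10.63, 10.73 and 9.61 in the epithelial line and 9.43, 6.20, 9.10 and 6.72 in the fibroblastic line. The tumours overlapped both lines, and the fibroblastic line again split into arrays 1 and 3 and arrays 2 and 4, which were 2.80 apart. Krt7, among the epithelial markers, split with Tgfa, at 8.99 and 8.23 on fibroblastic arrays 1 and 3 and 5.40 and 4.65 on arrays 2 and 4, while Krt19 was between 4.01 and 4.29 on all 4. Epcam and Cdh1 did not split in this way. Acta2, a marker of activated fibroblasts, read 12.13 and 12.04 on arrays 1 and 3 and 9.29 and 10.29 on arrays 2 and 4. Among the other fibroblastic markers, Pdgfrb went the other way, at 10.23 and 10.16 on arrays 1 and 3 and 11.25 and 10.77 on arrays 2 and 4. Postn was 13.99 to 14.10 on all 4, and Col1a1, Col1a2 and Vim were slightly higher on arrays 1 and 3. The actin probe sets read 1.72 and 1.05 higher at the 3′ end on arrays 1 and 3, and 2.65 and 2.01 higher on arrays 2 and 4. The part of these differences in Tgfa and Hbegf was not tested. The epithelial line was above the fibroblastic line by 2.46 (SE 0.81, adjusted p = 0.0453). That call ended without any 1 of the epithelial arrays or of fibroblastic arrays 2 and 4 (2.31, 2.26 and 2.82 without epithelial arrays 1, 2 and 3, and 1.91 and 2.08 without fibroblastic arrays 2 and 4, adjusted p 0.0657 to 0.129), with fibroblastic arrays 2 and 4 both left out (1.06, adjusted p = 0.0641), with the alike pairs averaged (2.46, adjusted p = 0.0800), and on the other probe set of the gene (2.27, adjusted p = 0.0524). Tumours differed from the epithelial line by -0.85 (SE 0.75, adjusted p = 0.368) and from the fibroblastic line by 1.62 (SE 0.70, adjusted p = 0.0659). The difference from the fibroblastic line was called without fibroblastic array 1 (2.14, adjusted p = 0.0191) or 3 (2.03, adjusted p = 0.0322).

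Btc encodes betacellulin, a ligand of Egfr and Erbb4. It varied least among the ligands, at 6.49, 6.37, 5.75 and 6.03 in the tumours, against 6.49, 6.76 and 6.68 in the epithelial line and 6.08, 5.72, 5.93 and 5.67 in the fibroblastic line. All 3 epithelial arrays were above all 4 fibroblastic arrays, by 0.79 (SE 0.16, adjusted p = 0.00525). The tumours spanned both lines. They were lower than the epithelial line by -0.48 (SE 0.19, adjusted p = 0.0495). This call was lost without tumour 3 or 4, without any 1 of the epithelial arrays, without fibroblastic array 2, 3 or 4 (adjusted p of up to 0.138), with the alike pairs averaged (-0.52, adjusted p = 0.0670), and when each array was centred on its median (-0.28, adjusted p = 0.238). Against the fibroblastic line the difference was 0.31 (SE 0.17, adjusted p = 0.139), and it was called without tumour 3 (0.45, adjusted p = 0.0362).

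Egfr encodes the receptor that binds all 5 of these ligands. It read 8.17, 7.67, 7.70 and 8.34 in the tumours, against 8.51, 8.35 and 8.04 in the epithelial line and 7.25, 8.33, 7.85 and 8.37 in the fibroblastic line. The 3 groups overlapped and no difference passed the test. The epithelial line differed from the fibroblastic line by 0.35 (SE 0.29, adjusted p = 0.381). The tumours differed from the epithelial line by -0.33 (SE 0.28, adjusted p = 0.342) and from the fibroblastic line by 0.02 (SE 0.26, adjusted p = 0.952). Tumours 1 and 4, the higher pair for Egfr, were also those with the highest hepatocyte markers, a cell type that makes Egfr, and the part of this in Egfr was not tested. The other probe sets of the gene gave other calls. A second set averaged 6.82 in the tumours and 7.81 in the epithelial line, a difference of -0.98 (adjusted p = 0.0284), and the third averaged 4.79 in the tumours and 4.26 in the fibroblastic line, a difference of 0.53 (adjusted p = 0.0398). The third read 3.97 to 5.26 over all arrays, below the array medians of 6.15 to 6.25, where a reading may be background.

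Erbb2 encodes the receptor with no known ligand, the partner of the other ErbB receptors. It read 6.83, 7.79, 7.47 and 7.08 in the tumours, against 8.94, 9.39 and 8.88 in the epithelial line and 6.80, 7.31, 6.96 and 7.16 in the fibroblastic line. The epithelial arrays stood above all others, and the tumours overlapped the fibroblastic line. Erbb2 averaged 9.07 ± 0.28 (SD, n = 3) in epithelial cells, against 7.06 ± 0.22 (SD, n = 4) in fibroblastic cells, a gap of 2.01 (SE 0.19, adjusted p = 0.000101). The tumours, at 7.29 ± 0.42 (SD, n = 4), were lower than the epithelial line by a difference of -1.78 (SE 0.23, adjusted p = 0.000174). They differed from the fibroblastic line by 0.24 (SE 0.22, adjusted p = 0.362).

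Erbb3 encodes the neuregulin receptor. It read 7.13, 7.33, 7.09 and 7.04 in the tumours, against 6.21, 6.51 and 7.03 in the epithelial line and 5.59, 5.50, 5.65 and 5.64 in the fibroblastic line. Unlike the other 7 members, it had its highest group mean in the tumours, and the 3 groups did not overlap, although epithelial array 3 lay next to tumour 4. The epithelial line was above the fibroblastic line by 0.99 (SE 0.20, adjusted p = 0.00565). The tumours were above the fibroblastic line by 1.56 (SE 0.16, adjusted p = 1.56e-05) and above the epithelial line by 0.57 (SE 0.17, adjusted p = 0.0189). The last call ended without epithelial array 1 (0.38, adjusted p = 0.0809) or 2 (0.53, adjusted p = 0.0586), without tumours 1 and 4 (0.63, adjusted p = 0.0641), and with the alike pairs averaged (0.59, adjusted p = 0.0581). Tumour 2, with the lowest hepatocyte markers, had the highest Erbb3 of the tumours (7.33), and the part of hepatocyte content in Erbb3 was not tested. Over all genes, 12.0% were called above both lines in the tumours, as Erbb3 was, and 17.9% below both, where no member was.

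**Figure D2:**
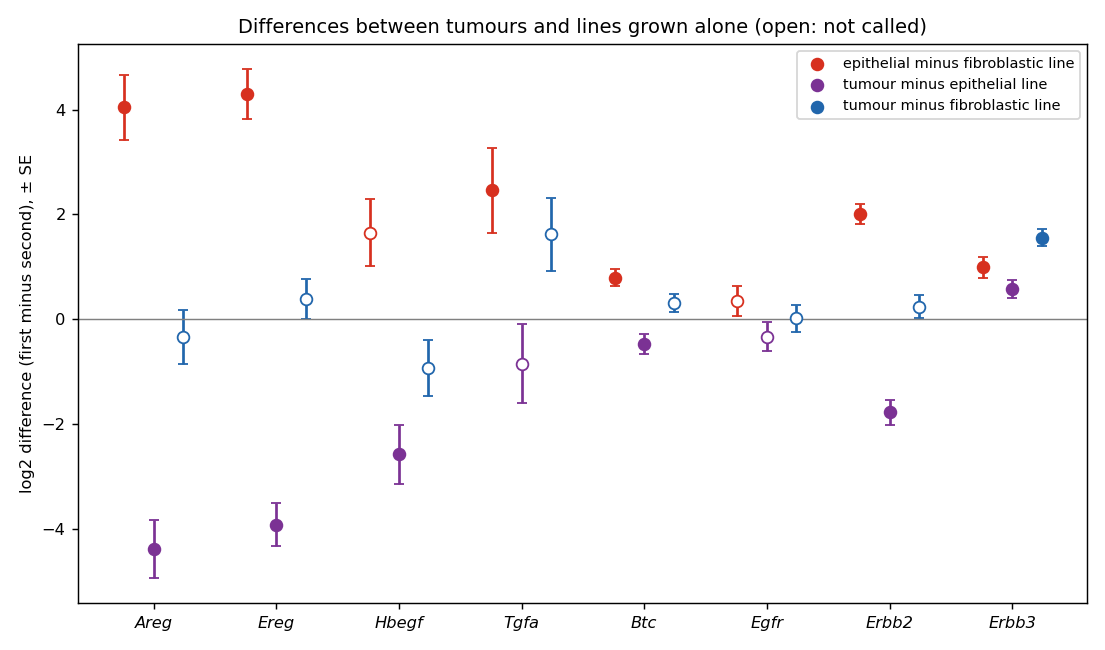
Log2 differences (vertical axis, first group minus second, with the standard error as bars) of the 8 members (horizontal axis) in the 3 comparisons of replicated groups, filled where called and open where not. Areg, Ereg and Erbb2 are far above 0 between the lines and far below 0 for the tumours against the epithelial line, and Erbb3 is above 0 in all 3 comparisons.

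The co-culture comparisons set each co-culture array against the line it was labelled as, grown alone. Both co-culture arrays carried the markers of both lines, so these differences do not measure a response of either line. With the lone array labelled epithelial co-culture set against the epithelial line alone, limma called 0 of the 8 members (1 at an unadjusted p under 0.05), where 7.24% of all genes were called. The array labelled fibroblastic co-culture against the fibroblastic line alone also gave 0 members (3 at an unadjusted p under 0.05), where 8.41% of all genes were called. These comparisons rest on 1 array in co-culture, assumed to vary like the replicated groups, so a member not called is not shown to be unchanged.

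Tgfa and Egfr stood above every array of both lines on both co-culture arrays. Tgfa read 11.29 on the array labelled epithelial co-culture and 11.79 on the array labelled fibroblastic co-culture, against at most 10.73 in the lines alone. The lower co-culture array was 0.56 above the highest line array. Egfr read 8.91 on the array labelled epithelial co-culture and 9.14 on the array labelled fibroblastic co-culture, against at most 8.51 in the lines alone, a gap of 0.40. Over all genes, 5.80% stood above every line array on both co-culture arrays. For Egfr this was seen on the probe set with the highest mean and not on the other probe sets, which averaged 7.50 and 4.53 on the array labelled epithelial co-culture, against 7.81 and 4.57 in the epithelial line. The dimmer of them read below the array medians of 6.15 to 6.25.

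The differences of the array labelled fibroblastic co-culture from the fibroblastic line were 3.93 for Tgfa (SE 1.19, adjusted p = 0.0943), 1.19 for Egfr (SE 0.42, adjusted p = 0.148) and 1.05 for Erbb2 (SE 0.28, adjusted p = 0.0609). With fibroblastic arrays 2 and 4 left out these 3 members were called, at 2.53 (adjusted p = 0.0213), 1.59 (adjusted p = 0.0311) and 1.23 (adjusted p = 0.0447). The array labelled epithelial co-culture differed from the epithelial line by 0.97 for Tgfa (SE 1.23, adjusted p = 0.739), 0.61 for Egfr (SE 0.44, adjusted p = 0.485) and -0.68 for Erbb2 (SE 0.29, adjusted p = 0.216).

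Because each co-culture array carried the markers of both lines, their mean was also set against each line, a comparison chosen after seeing the data. Against the fibroblastic line, Ereg was higher by 2.88 (SE 0.54, adjusted p = 0.00857), Tgfa by 3.68 (SE 0.92, adjusted p = 0.0297) and Erbb2 by 1.19 (SE 0.22, adjusted p = 0.00759). These 3 of 8 were called, all higher, where 17.3% of all genes were called and 8.47% called higher. The Tgfa call ended without fibroblastic array 4 (3.30, adjusted p = 0.0616) and in a fit of the groups compared alone (adjusted p = 0.0759). With the alike pairs averaged, the Tgfa (adjusted p = 0.0624) and Ereg (adjusted p = 0.0598) calls ended and that of Erbb2 did not. Areg was 2.42 higher (SE 0.71, adjusted p = 0.0520) and Egfr 1.08 higher (SE 0.33, adjusted p = 0.0591), both short of the threshold. Against the epithelial line Erbb2 was the only member called, where 15.3% of all genes were called. It was lower by a difference of -0.82 (SE 0.23, adjusted p = 0.0479), and this call ended in all 7 fits with an array left out and with the alike pairs averaged (adjusted p = 0.0887).

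Areg and Ereg separated the co-culture arrays from each other. Areg read 11.17 on the array labelled epithelial co-culture and 8.69 on the array labelled fibroblastic co-culture, a gap of 2.48. Ereg read 9.09 and 6.50 on the same arrays, a gap of 2.59. The 3 arrays of the epithelial line alone ranged over 1.99 for each of these 2 genes. On the co-culture arrays the epithelial markers averaged 12.70 and 12.73 and the fibroblastic markers 11.06 and 11.29. The 2 arrays had a correlation of 0.983 over all genes, and the part of cell composition in the gaps of Areg and Ereg was not tested. With 1 array each there is no test of these gaps, and 0.422% of all genes were at least 4-fold higher on the array labelled epithelial co-culture. Both values lay between the means of the lines for these 2 genes, as they did for Btc, Erbb2 and Erbb3, where 33.9% of all genes lay between them.

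The remaining members showed small gaps between the co-culture arrays. Hbegf read 10.37 on the array labelled epithelial co-culture and 9.60 on the array labelled fibroblastic co-culture, both within the epithelial range of 9.26 to 10.52. Btc read 6.32 and 5.94 on the same arrays, Erbb2 8.40 and 8.11, and Erbb3 5.98 and 5.86. Erbb3 was thus below every epithelial array and above every fibroblastic array on both. Taken as labelled, the co-culture difference of the epithelial arrays minus that of the fibroblastic arrays was -1.73 for Erbb2 (SE 0.40, adjusted p = 0.0363), the only member of 8 called, where 8.43% of all genes were called. This number is, by construction, the 0.29 between the co-culture arrays minus the 2.01 between the lines, and since both co-culture arrays carried the markers of both lines it does not measure a response of either line. The call ended without epithelial array 1 or 2 or without fibroblastic array 1, 3 or 4, with a range of -1.57 to -1.79 and adjusted p of 0.0511 to 0.0654, and with the alike pairs averaged (adjusted p = 0.0962).

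**Figure D3:**
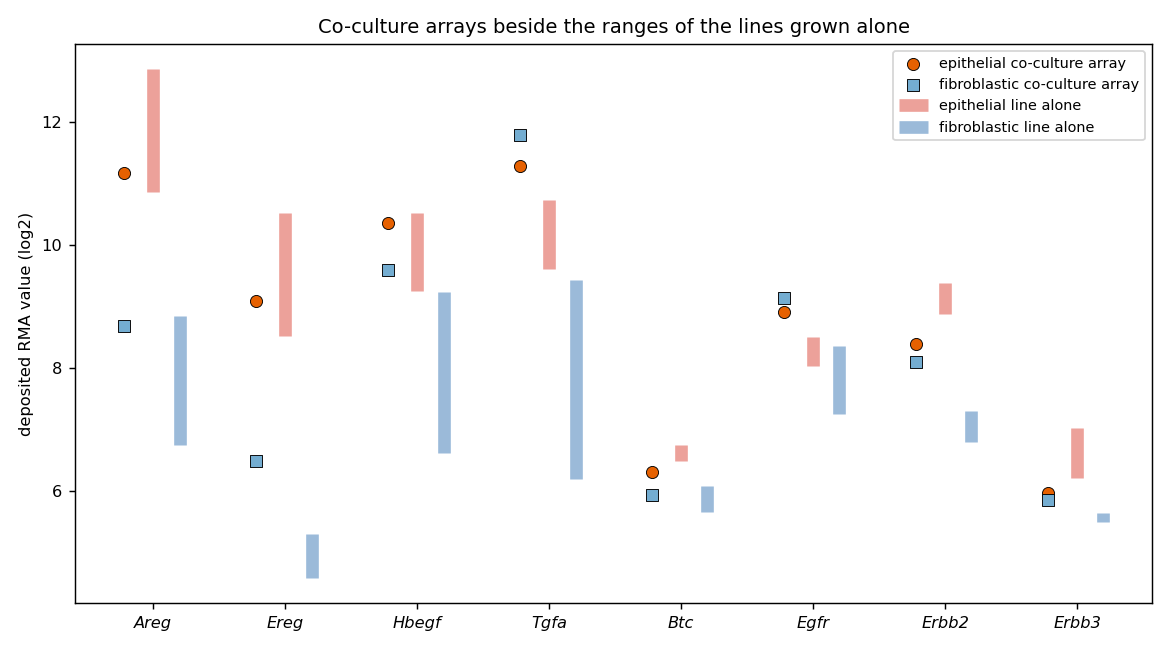
Deposited RMA values (log2, vertical axis) of the 8 members (horizontal axis) on the co-culture arrays (points) beside the range of the arrays of each line grown alone (bars). Tgfa (11.29 and 11.79) and Egfr (8.91 and 9.14) lie above both bars on both arrays, and Areg and Ereg lie apart by 2.48 and 2.59 between the co-culture arrays.

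The genes with patterns most like each member were found over all 13 arrays among genes that range over at least 2 log2 units, as a description. Points from the same line or tumour group share their source, so these values mostly restate the order of the groups. Areg was most like Ereg (Pearson's r = 0.95), followed by Gdf15 (0.94), a stress-induced cytokine, and Efhc2 (0.93). Ereg was most like Gdf15 (0.97) and Hoxc4 (0.95). Tgfa was most like the glycolytic enzyme genes Eno1 (0.95) and Tpi1 (0.93) and the laminin gene Lama3 (0.92). Hbegf was most like Osgin2 (0.92), Ier3 and Rassf9 (0.91 each), and Btc was most like Stard4 (0.89). Among the receptors, Erbb2 was most like Ccdc120 (0.98), and Egfr was most like Abhd18 at a lower 0.85. Erbb3 was most like Rap2b (0.97), Lmo2 (0.97) and Cd86 (0.96), the last a surface molecule of antigen-presenting cells, whose markers stood high in the tumours as Erbb3 did. The part of such cells in Erbb3 was not tested.

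The other genes of the pathway were described in 6 lists holding 86 genes, of which 73 were measured. The list counts are to be read against the shares of all genes called, which were 20.9% higher and 16.6% lower in the epithelial than in the fibroblastic line, 18.9% higher and 33.2% lower for tumours against the epithelial line, and 27.3% higher and 33.5% lower for tumours against the fibroblastic line. Of the other ligands and Erbb4, 5 of 7 were measured. Nrg1, a neuregulin that binds Erbb3, averaged 5.56 ± 0.13 in the tumours (SD, n = 4), 4.84 ± 0.34 in the epithelial line (SD, n = 3) and 7.92 ± 0.17 in the fibroblastic line (SD, n = 4). It was the only gene of this list called between the lines, lower in the epithelial line by a difference of -3.08 (SE 0.19, adjusted p = 8.98e-06), and it was lower in the tumours than in the fibroblastic line by -2.35 (SE 0.15, adjusted p = 6.19e-07). On the co-culture arrays Nrg1 read 5.31 (labelled epithelial) and 5.46 (labelled fibroblastic), and the array labelled fibroblastic was lower than the fibroblastic line alone by a difference of -2.46 (SE 0.28, adjusted p = 0.00166). Of its 8 probe sets, 2 had the opposite sign between the lines and 3 in the tumours against the fibroblastic line. Erbb3 and Nrg1 thus had opposite signs between the lines.

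Among the sheddases and their helpers, 9 of 10 were measured, and 4 were higher and 2 lower in the epithelial line than in the fibroblastic line (20.9% and 16.6% of all genes). The sheddase gene Adam9 was higher by 1.87 (SE 0.24, adjusted p = 0.000619) and Rhbdf2, whose product brings the sheddase Adam17 to the cell surface, by 1.67 (SE 0.15, adjusted p = 6.93e-05). Timp3, a secreted inhibitor of sheddases, was lower by a difference of -5.31 (SE 0.33, adjusted p = 9.39e-06). Adam19 was lower too, by -2.07 (SE 0.37, adjusted p = 0.00306), with 1 of its 4 probe sets of the opposite sign. Adam8 was higher by 3.80 (SE 0.32, adjusted p = 5.36e-05), with 1 of its 2 probe sets of the opposite sign. In the tumours 3 were higher and 2 lower than in the epithelial line (18.9% and 33.2% of all genes), and 4 higher and 4 lower than in the fibroblastic line (27.3% and 33.5% of all genes). Adam10, which sheds several ErbB ligands, averaged 8.92 ± 0.16 in the tumours (SD, n = 4), 7.46 ± 0.45 in the epithelial line (SD, n = 3) and 6.81 ± 0.29 in the fibroblastic line (SD, n = 4), and was higher in the tumours by 1.45 (SE 0.22, adjusted p = 0.000429) and 2.11 (SE 0.20, adjusted p = 9.90e-06). On the co-culture arrays Timp3 read 11.80 (labelled epithelial) and 11.27 (labelled fibroblastic), above the 4.11 to 5.42 of the epithelial line and the 9.69 to 10.56 of the fibroblastic line.

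Of the receptor partners all 8 were measured, and 5 were higher and 1 lower in the epithelial line (20.9% and 16.6% of all genes). Muc1, a membrane mucin known to bind ErbB receptors, was higher by 3.49 (SE 0.31, adjusted p = 7.40e-05), while the heparan sulfate proteoglycan Gpc1 was lower by a difference of -5.56 (SE 0.17, adjusted p = 1.93e-07). In the tumours 1 was higher and 1 lower than in the epithelial line (18.9% and 33.2% of all genes), and 3 higher and 1 lower than in the fibroblastic line (27.3% and 33.5%). Of the negative regulators, 15 of 18 were measured, with 4 higher and 3 lower in the epithelial line. Cblc, a ubiquitin ligase of the Cbl family, was higher there by 4.41 (SE 0.23, adjusted p = 2.88e-06). The transmembrane inhibitors Lrig1 and Lrig3 went in opposite directions, 1.57 for Lrig1 (SE 0.23, adjusted p = 0.00120) and -5.08 for Lrig3 (SE 0.30, adjusted p = 5.99e-06). The tumours had 2 negative regulators higher and 4 lower than the epithelial line, and 6 higher and 7 lower than the fibroblastic line, where 18.9% and 33.2% of all genes were higher and lower in the first comparison and 27.3% and 33.5% in the second. Socs3, a feedback inhibitor of cytokine receptors, was higher in the tumours by 1.50 against the epithelial line (SE 0.15, adjusted p = 2.95e-05) and by 1.89 against the fibroblastic line (SE 0.14, adjusted p = 1.21e-06).

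Of the adaptors and signal transducers, 20 of 27 were measured, and 2 were higher and 4 lower in the epithelial line than in the fibroblastic line (20.9% and 16.6% of all genes). Grb7, an adaptor that binds ErbB receptors and whose gene lies close to Erbb2 in mammalian genomes, was higher by 2.69 (SE 0.17, adjusted p = 8.32e-06). Gab1 (-0.94, SE 0.19, adjusted p = 0.00526), Araf (-0.84, SE 0.23, adjusted p = 0.0222) and Stat3 (-0.83, SE 0.18, adjusted p = 0.00776) were lower. The Araf call ended in 6 of 17 alternatives (adjusted p of up to 0.0682). It ended without any 1 of the epithelial arrays, without fibroblastic array 3, with its probe sets averaged, and with the alike pairs averaged (adjusted p = 0.0544). In the tumours 1 was higher and 13 lower than in the epithelial line, with a list median of -0.61 against -0.17 over all genes, and 3 were higher and 10 lower than in the fibroblastic line. All 16 ERK output genes were measured, and 7 were higher and 1 lower in the epithelial line, with a median of 1.18 against 0.11 over all genes. Epha2, a receptor kinase induced by ERK, averaged 8.94 ± 0.41 in the tumours (SD, n = 4), 11.17 ± 0.12 in the epithelial line (SD, n = 3) and 7.77 ± 0.33 in the fibroblastic line (SD, n = 4). In the tumours 1 ERK output gene was higher and 10 were lower than in the epithelial line, with a median of -1.13, where 18.9% of all genes were higher and 33.2% lower. Against the fibroblastic line 5 were higher and 6 lower, about the shares over all genes (27.3% and 33.5%). Set against the epithelial line, tumours had less Epha2, by -2.23 (SE 0.24, adjusted p = 4.75e-05), and less of the AP-1 gene Fosl1, by -2.17 (SE 0.38, adjusted p = 0.00103). Myc was higher in the epithelial line than in the fibroblastic line by 2.81 (SE 0.29, adjusted p = 0.000182). The phosphatase gene Dusp6, which acts on ERK, was higher in the tumours than in the fibroblastic line by 2.10 (SE 0.34, adjusted p = 0.000369). Among the 6 lower there were Egr1 (-2.95, SE 0.70, adjusted p = 0.00398), Spry2 (-1.58, SE 0.32, adjusted p = 0.00179) and Etv4 (-1.48, SE 0.42, adjusted p = 0.0106). The Etv4 call ended with the alike pairs averaged (adjusted p = 0.0586), without fibroblastic arrays 2 and 4, and without tumours 1 and 4. Spry4 was lower in epithelial than in fibroblastic cells (-1.15, SE 0.21, adjusted p = 0.00338). Tumours had more Spry4 than epithelial cells, by 0.73 (SE 0.18, adjusted p = 0.00673).

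**Figure D4:**
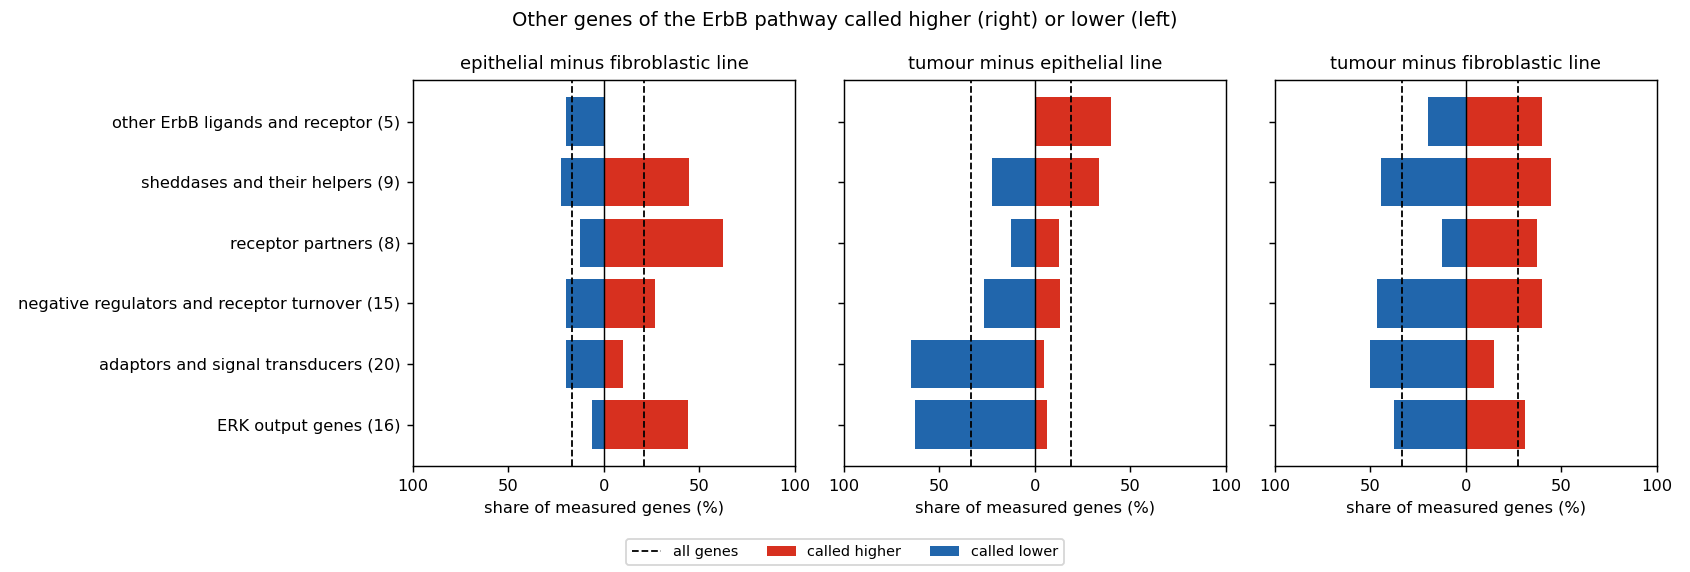
Share of the measured genes of each pathway list (number measured in brackets) called higher (red, right of 0) or lower (blue, left of 0) in the 3 comparisons, with dashed lines at the shares over all genes. Tumours against the epithelial line had 13 of 20 adaptors and 10 of 16 ERK output genes called lower, where 33.2% of all genes were called lower.

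On both co-culture arrays, 11 of the 73 pathway genes stood above every array of both lines, as did 5.80% of all genes. They are named here after their values were seen: Adam17, Timp3, Muc4, Cd44, Anxa2, Errfi1, Socs3, Socs5, Pik3ca, Dusp6 and Ccnd1. Anxa2 (14.10 on the lower co-culture array, against at most 14.09 in the lines alone) and Pik3ca (9.92, against at most 9.91) only just did so. Errfi1, whose product binds and inhibits Egfr, read 12.45 (labelled epithelial) and 12.33 (labelled fibroblastic), against 10.51 to 11.22 in epithelial cells and 8.66 to 11.34 in fibroblastic cells. Adam17, the sheddase of Areg, Ereg, Hbegf and Tgfa, read 10.19 and 10.12 on the same arrays, against 9.27 to 9.83 in epithelial cells and 9.47 to 9.99 in fibroblastic cells. Socs3 read 6.93 on both, against at most 6.01 in the epithelial line and 5.53 in the fibroblastic line.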

How the data were processed

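RNA from 4 tumours and 9 cultures was Trizol-extracted, labelled with biotin and measured on 1-colour rat arrays from Affymetrix, per the labels' protocols. The deposited values are log2 expression values computed with RMA by the authors, per the submitters' processing notes. Neither the RMA version nor the set of arrays it normalized is given in the sources used here, and the log2 scale was taken from the range of the values (2.94 to 14.69, with array medians of 6.15 to 6.25). RMA equalizes the distributions of arrays, so a shift of most genes in a sample would not show. Arrays have no counting depth, and their number limits the precision.

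Of 31099 probe sets, 57 controls were left out, and 20826 that name a single gene gave 14217 genes (436 name several, 9780 none). Symbols were updated by Entrez identifier for 20758 probe sets and by accession for 2, and kept for 66. The probe set with the highest mean stands for each of the 4525 genes with several. Differences between group means were fitted in R 4.3.3 using limma 3.58.1 (two-sided moderated tests, Benjamini-Hochberg adjustment over the whole table). Called means an adjusted p under 0.05. The lines alone and in co-culture shared a fit of 9 arrays, and the tumours and the lines alone a fit of 11 arrays. The fits were checked on simulated data. In that check fewer changes passed the threshold with 1 co-culture array than between replicated groups. No change passed it for the difference in co-culture response.

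The members, pathway lists, markers and alternatives were chosen with earlier results of these data known, and the comparison of both co-culture arrays with each line and the averaging of the most alike arrays of a group were added after seeing the data. Pathway genes were named as at most the 3 largest called differences of a list in each direction, apart from those said to be named otherwise, and some of these are left out for brevity. The alternatives were 1 fit of all 13 arrays, only the groups compared, median centring, a further quantile normalization, the lowest 25% of genes left out, probe sets averaged per gene or each set alone, trend and robust moderation, an adjusted p under 0.01, the replicate block (statmod 1.5.0), each array left out, fibroblastic arrays 2 and 4 left out, tumours 1 and 4 left out, and tumour 2 as the only tumour. Python 3.11.15 with matplotlib 3.10.9, numpy 2.4.6 and pandas 2.3.3 drew the plots and tables.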

Additional observations from a re-analysis of the deposited data

Results flagged for a closer look

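Erbb2 was the only member called when the co-culture difference of the epithelial arrays was tested against that of the fibroblastic arrays, as labelled, at -1.73 (SE 0.40, limma adjusted p = 0.0363). The array labelled epithelial co-culture was -0.68 from the epithelial line alone and the array labelled fibroblastic co-culture 1.05 from the fibroblastic line alone, with 1 array in co-culture each. The call was kept in 2 of 7 fits with an array left out (adjusted p of 0.0374 to 0.0654), ended with the most alike arrays averaged (adjusted p = 0.0962), and 0 members were called at an adjusted p under 0.01. Both co-culture arrays carried the markers of both lines, so the value does not measure a response of either line. No array stood apart from its group by Dixon's test in the 16 sets of values tested (8 members in the 4 tumours and in the 4 fibroblastic arrays), where chance gives about 1 in 20. The 3 epithelial arrays were too few for it. Dixon's test looks for a single array apart from the rest. It therefore could not show the split of fibroblastic arrays 1 and 3 from arrays 2 and 4 in Tgfa and Hbegf.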

How the results depend on the processing

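Under the alternatives, the 18 called differences of members gave 310 of 367 values with the same call, 57 short of the threshold and 0 with the opposite sign, and the 46 differences not called gave 846 of 897 alike, 29 past the threshold and 22 with the opposite sign. The differences of Areg, Ereg and Erbb2 between the lines, and of Areg, Ereg and Erbb2 for tumours against the epithelial line, kept sign and call in every fit with an array left out. With a further quantile normalization, those that turned sign were Egfr in tumours against the epithelial line (0.03), Ereg (-0.07) and Btc (-0.09) in tumours against the fibroblastic line, and Btc in the fibroblastic co-culture (-0.10). For tumours against the fibroblastic line, Areg (-0.59 to 0.11 with an array left out) turned without fibroblastic array 4 (0.11) and without arrays 2 and 4 (0.26), and Egfr (-0.22 to 0.16 with an array left out) turned without tumour 1 (-0.05) or 4 (-0.10), without fibroblastic array 1 (-0.22) or 3 (-0.01), with tumour 2 as the only tumour (-0.28) without tumours 1 and 4 (-0.27) and with the most alike arrays averaged (-0.08). In the epithelial co-culture Areg (-0.73 to 0.26) and Ereg (-0.47 to 0.53) turned without epithelial array 3 (0.26 and 0.53). Without fibroblastic arrays 2 and 4, Btc in the fibroblastic co-culture (-0.06) and Hbegf in the difference in response (0.11, where all arrays gave -0.87) turned. On single probe sets, Egfr turned in the epithelial co-culture (-0.31 and -0.04), for both co-culture arrays against the epithelial line (-0.33 and -0.02) and for tumours against the epithelial line (0.21). With the mean of the probe sets, Anxa2 in tumours against the fibroblastic line (-0.34) and Akt2 in tumours against the epithelial line (0.14, where the brightest probe set gave -1.26) turned. The cause was not tested.

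Genes called at an adjusted p under 0.01 were 3391 between the lines, 4878 for tumours against the epithelial line, 453 and 532 in the epithelial and fibroblastic co-culture, 632 for the difference in response (0 members), and 893 (0 members) and 1240 for both co-culture arrays against the epithelial and the fibroblastic line, a stricter limit. For tumours against the epithelial line, tumour 2 alone gave 1958 genes and 3 members and leaving out tumours 1 and 4 gave 4549 genes, with fewer arrays, and tumour 2 alone against the fibroblastic line gave 3912 genes. The fits reported above called 37.4% of all genes between the lines. For tumours against the epithelial and the fibroblastic line they called 52.1% and 60.9%. The shares were 7.24% and 8.41% in the epithelial and fibroblastic co-culture and 8.43% for the difference in response. For both co-culture arrays they were 15.3% and 17.3% against the epithelial and the fibroblastic line. Counts of members are to be read against these shares. Members called for tumours against the fibroblastic line were 3 after median centring, 2 after quantile normalization and 2 without fibroblastic arrays 2 and 4. In 1 fit of all 13 arrays the epithelial co-culture gave 1743 genes, the fibroblastic co-culture 1 member and both co-culture arrays against the fibroblastic line 5 members. The fibroblastic co-culture gave 1 member with only the groups compared and 3 without fibroblastic arrays 2 and 4, and both co-culture arrays against the fibroblastic line gave 5 there. Both co-culture arrays against the epithelial line gave 0 members with only the groups compared, 2 after quantile normalization and 0 with trend and robust moderation. With the most alike arrays averaged, which leaves fewer arrays and was added after seeing the data, 639 and 673 genes were called in the epithelial and fibroblastic co-culture, 0 members for the difference in response, 0 members for both co-culture arrays against the epithelial line, and 1323 genes and 1 member against the fibroblastic line. With each array left out, members called ranged from 5 to 7 between the lines, 4 to 6 and 1 to 2 for tumours against the epithelial and the fibroblastic line, 0 to 0 and 0 to 1 in the epithelial and fibroblastic co-culture, 0 to 1 for the difference in response, and 0 to 0 and 3 to 4 for both co-culture arrays against the epithelial and the fibroblastic line. With the replicate number as a block, 5753 genes and 6 members were called between the lines, and the number of members called was the same in every comparison. Same-numbered arrays did not all deviate together, and 9 of 20 correlated best with their own number. Each array was set against the 3 or 4 arrays of another group, and each pair was counted from both sides. This check therefore cannot decide whether the numbers pair the arrays.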
